A study of Mus musculus with 8 samples.

Results

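The upper glycolysis isoenzymes are the 10 genes Hk1, Hk2, Hk3, Gpi1, Pfkl, Pfkm, Pfkp, Aldoa, Aldoc and Tpi1, whose products carry glucose to the triose phosphates. They were chosen by gene symbol in the platform's annotation, with the probe set of the highest mean over the 8 arrays where a gene had several. Each of 9 symbols had 1 probe set among the 19505 genes tested. Gpi1, the gene of glucose-6-phosphate isomerase, had no probe set under its symbol in that annotation and was not analysed here.

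The arrays came from splenic T cells of male wild-type C57BL/6 mice, a mixture of CD4 and CD8 cells purified with an isolation kit and activated with beads against CD3 and CD28. In 4 samples human beta-defensin-2 (hBD-2), an antimicrobial peptide of epithelia, was present for 48 h, and in the other 4 its vehicle, phosphate-buffered saline (PBS), was present for the same time. All 8 samples thus carried the bead stimulus. The labels give the peptide as 60 µL/mL, so its mass concentration is not known, and they give no age. The series names 4 mice for the 8 samples without tying a sample to a mouse. Where cells of 1 mouse served both groups the samples are not independent, and the spread between samples may be partly technical.

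In glycolysis a hexokinase traps glucose as glucose 6-phosphate, an isomerase turns this into fructose 6-phosphate, and a phosphofructokinase commits it by a further phosphorylation. An aldolase then splits the sugar, and triosephosphate isomerase makes both products usable by the lower pathway. T cells raise glycolysis when they are activated, and the transcription factors Myc and HIF-1 are known inducers of many of its genes. Several steps have isoenzymes, encoded by separate genes with different tissue ranges and control.

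Of the 9 genes measured, 8 were lower with hBD-2, 0 were higher and 1, Hk3, did not pass the threshold (limma adjusted p below 0.05 over all genes). Over all genes 4.46% were called, 3.66% lower and 0.800% higher. The 10 genes were chosen with results of this comparison known, so nothing is read from their count. The median log2 fold change of the 9 genes was -0.81, against a median of 0.02 over all 19505 genes. In the same 8 genes the highest hBD-2 array lay below the lowest PBS array, whereas 9.36% of all genes were lower without overlap. The distance between those arrays ran from 0.44 log2 units for Aldoa to 1.74 for Aldoc. RNA of whole cell populations was measured, so fewer cells using a gene and less RNA per cell cannot be told apart.

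**Figure D1:**
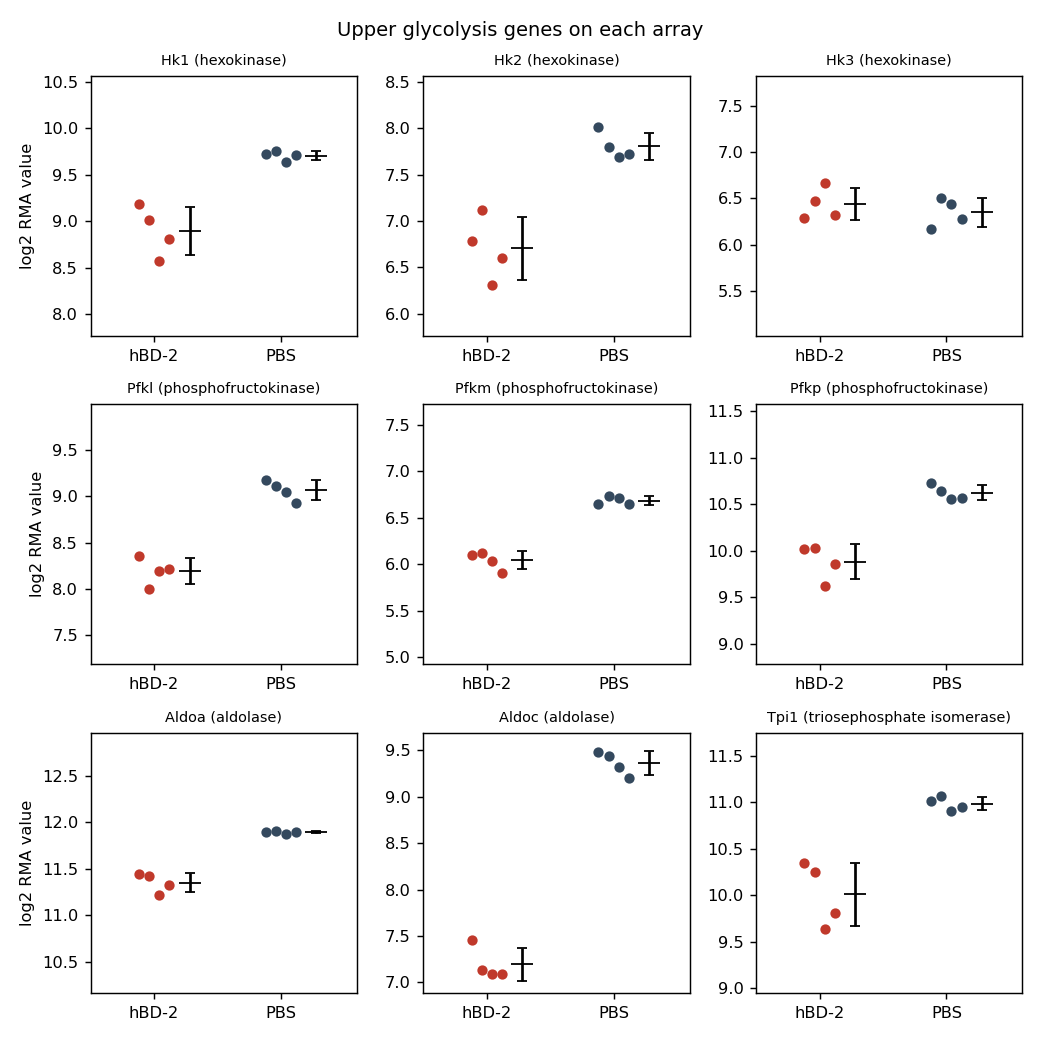
Deposited log2 values of the 9 measured genes, 1 point per array, hBD-2 at the left and PBS at the right of each panel, with mean and SD (n = 4 each) beside the points. Every panel spans the same number of log2 units, and panels are not to be compared in height. Hk3 is the 1 gene whose groups overlap.

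The T cell label was checked against lineage markers. All 10 measured T cell markers lay above the median of every array, and none of them passed the limma threshold (1 had an unadjusted p below 0.05), with the CD3 chain gene Cd3e at 11.47 ± 0.04 with hBD-2 and 11.54 ± 0.03 with PBS (SD, n = 4 each). The summed level of these markers was 13.82 to 13.89 log2 units on the hBD-2 arrays and 13.82 to 13.89 on the PBS arrays. Among markers of other spleen cells, 2 of 5 mast cell and basophil genes were higher with hBD-2 (Cpa3 and Fcer1a), 1 of 6 erythroid and platelet genes was higher (Klf1) and 1 of 8 macrophage and monocyte genes was lower (Itgam). At an unadjusted limma p below 0.05 4 mast cell and basophil genes and 2 erythroid and platelet genes were higher, and 2 macrophage and monocyte genes were higher and 1 lower. The mast cell and basophil sum was 7.04 to 7.78 log2 units with hBD-2 and 6.65 to 6.78 with PBS. B cell markers varied most between arrays, with sums of 7.53 to 9.23 with hBD-2 and 7.59 to 8.58 with PBS, and none of 7 passed. None of 7 neutrophil, 6 dendritic cell or 3 NK cell markers passed either, and at an unadjusted limma p below 0.05 these 4 lists held 0, 0, 1 and 1 genes. The share of all genes at that unadjusted p was not determined, so nothing is read from unadjusted counts here or below. Markers with a mean above the median of every array numbered 2 for B cells, 2 for erythroid cells and platelets and 1 for neutrophils. There was 1 for macrophages and monocytes and 0 for dendritic cells, NK cells, or mast cells and basophils. The part of these other spleen cells in the values below was not tested.

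Arrays of the groups also differed in how widely their values were spread. The interquartile range was 3.53 ± 0.09 log2 units with hBD-2 and 3.68 ± 0.05 with PBS (SD, n = 4 each, exact permutation test, two-sided, p = 0.0571), and it was narrowest, at 3.45, on hBD-2 replicates 3 and 4. With each array's trend against level removed, the same 8 genes were called lower, each with a smaller fall. Aldoa, the smallest, was at a log2 fold change of -0.48 in place of -0.54, and Aldoc, the largest, at -2.07 in place of -2.17. Without hBD-2 replicates 3 and 4, 7 were called lower, and Aldoa was not (log2 fold change -0.46, limma adjusted p = 0.0840). Over all genes that omission took the count called lower from 713 to 112. How far a call lost by it, here or below, rests on the smaller number of arrays was not tested.

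The hexokinase step held both a change of 2.14-fold and no detected change. Hk1 encodes the widely expressed hexokinase that docks on mitochondria. It had log2 values of 9.18, 9.01, 8.58 and 8.81 on the hBD-2 arrays, against 9.72, 9.75, 9.63 and 9.72 on the PBS arrays. The PBS arrays lay within 0.12 of each other, and all 4 hBD-2 arrays were below them and more spread. Hk1 was 1.75-fold lower with hBD-2, at 8.90 ± 0.26 in hBD-2 cells and 9.71 ± 0.05 in PBS cells (SD, n = 4 each; log2 fold change -0.81, SE 0.12, limma adjusted p = 0.00494).

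Hk2 encodes the inducible hexokinase of muscle, fat and proliferating cells, which is regarded as the form that activated lymphocytes raise. Its log2 values were 6.79, 7.12, 6.32 and 6.60 with hBD-2, against 8.01, 7.79, 7.69 and 7.72 with PBS. The groups did not overlap, and hBD-2 replicate 3 was the lowest array of all. Hk2 fell 2.14-fold, to 6.70 ± 0.34 in hBD-2 cells against 7.80 ± 0.14 in PBS cells (SD, n = 4 each; log2 fold change -1.10, SE 0.15, limma adjusted p = 0.00290).

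Hk3 encodes a hexokinase found mainly in white blood cells of the myeloid lineage. Its log2 values were 6.29, 6.47, 6.67 and 6.32 with hBD-2, against 6.17, 6.51, 6.44 and 6.28 with PBS. The groups overlapped almost wholly, and the array with the lowest Hk2 had the highest Hk3. The log2 fold change was 0.09 with a 95% interval of -0.16 to 0.34 (limma adjusted p = 0.699), an interval that lies above those of Hk1 (-1.08 to -0.54) and Hk2 (-1.43 to -0.76). The 8 macrophage and monocyte markers had a summed level of 7.32 to 8.24 log2 units on the hBD-2 arrays and 7.19 to 7.80 on the PBS arrays, with a median log2 fold change of 0.18. Of these 8, Itgam was lower (log2 fold change -0.62, limma adjusted p = 0.0461) and none was higher, while 2 were higher at an unadjusted limma p below 0.05. Their part in the level of Hk3 was not tested.

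The promoters of Hk2 and Hk3 are shown because, of this step, Hk2 had the largest fall and Hk3 did not pass. The sequences are from RefSeq (GRCm38.p6), run from 250 bases before to 50 bases after the annotated start, and are read 5′ to 3′ on the gene's strand. Capitals mark ACGTG or GCGTG on either strand (CACGT and CACGC when read from the other strand), the core letters of the element that HIF-1 binds. An E-box CACGTG, the element of Myc, counts as a match of ACGTG on each strand.
Hk2, chr6:82774405-82774704, minus strand: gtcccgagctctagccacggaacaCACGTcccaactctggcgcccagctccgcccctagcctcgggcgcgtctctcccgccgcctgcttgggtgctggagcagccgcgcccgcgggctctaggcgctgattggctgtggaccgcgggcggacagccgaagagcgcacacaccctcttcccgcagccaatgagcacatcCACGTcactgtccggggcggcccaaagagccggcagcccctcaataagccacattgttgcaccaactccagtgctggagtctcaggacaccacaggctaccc
Hk3, chr13:55021336-55021635, minus strand: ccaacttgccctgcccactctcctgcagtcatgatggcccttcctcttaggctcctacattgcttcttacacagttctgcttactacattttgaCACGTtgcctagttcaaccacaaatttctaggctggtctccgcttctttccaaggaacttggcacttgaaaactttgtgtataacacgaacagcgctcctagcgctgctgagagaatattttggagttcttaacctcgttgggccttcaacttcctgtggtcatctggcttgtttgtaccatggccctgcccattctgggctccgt
The Hk2 window held ACGTG in 2 places, with first bases at -226 and -52 counted from the start site, and the Hk3 window held it once, at -156. One or both of the motifs stood in 43.8% of the 32851 promoter windows of that table (ACGTG in 19.6% and GCGTG in 32.4%), so a match is common and describes letters, not binding.

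All 3 phosphofructokinase genes were lower with hBD-2, by amounts between 1.56-fold and 1.83-fold. Phosphofructokinase works as a tetramer of the liver (Pfkl), muscle (Pfkm) and platelet (Pfkp) type subunits and is the main point of control of the pathway. Pfkl had log2 values of 8.36, 8.01, 8.20 and 8.22 with hBD-2, against 9.17, 9.11, 9.05 and 8.93 with PBS. The arrays of the groups stood 0.57 apart at the nearest, and here hBD-2 replicate 2 was the lowest. Pfkl was at 8.19 ± 0.14 with hBD-2 and 9.07 ± 0.10 with PBS (SD, n = 4 each), or 1.83-fold lower (log2 fold change -0.87, SE 0.10, limma adjusted p = 0.00105).

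Pfkm values were 6.10, 6.12, 6.03 and 5.91 with hBD-2, against 6.64, 6.73, 6.72 and 6.65 with PBS. Both groups were tight, and no array strayed towards the other group. The mean was 6.04 ± 0.10 with hBD-2 and 6.68 ± 0.05 with PBS (SD, n = 4 each), a 1.56-fold fall (log2 fold change -0.64, SE 0.09, limma adjusted p = 0.00253).

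Pfkp values were 10.02, 10.03, 9.62 and 9.86 with hBD-2, against 10.73, 10.65, 10.56 and 10.56 with PBS. As with Hk1 and Hk2, hBD-2 replicate 3 was the lowest array. Pfkp was at 9.88 ± 0.19 with hBD-2 and 10.63 ± 0.08 with PBS (SD, n = 4 each), a 1.67-fold fall (log2 fold change -0.74, SE 0.11, limma adjusted p = 0.00387). Its promoter is shown because it held the most matches of GCGTG among the promoter windows of the 10 genes, 4 in all.
Pfkp, chr13:6648722-6649021, minus strand: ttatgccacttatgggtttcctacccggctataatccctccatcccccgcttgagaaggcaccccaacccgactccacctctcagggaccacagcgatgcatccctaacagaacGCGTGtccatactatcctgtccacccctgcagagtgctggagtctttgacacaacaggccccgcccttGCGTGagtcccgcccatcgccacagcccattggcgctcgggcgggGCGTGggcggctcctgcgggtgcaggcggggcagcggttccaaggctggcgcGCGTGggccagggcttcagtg
The 4 matches begin at -136, -68, -23 and 30, each on the strand as printed.

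The aldolase step showed the widest gap between isoenzymes. Aldoa encodes the muscle-type aldolase, which most tissues use. Its log2 values were 11.44, 11.42, 11.22 and 11.32 with hBD-2, against 11.90, 11.91, 11.88 and 11.90 with PBS. The PBS arrays spanned 0.03 log2 units, and the hBD-2 arrays spanned 0.22 below them. Aldoa was at 11.35 ± 0.10 with hBD-2 and 11.89 ± 0.01 with PBS (SD, n = 4 each), a 1.46-fold fall and the smallest of the 8 (log2 fold change -0.54, SE 0.09, adjusted p by limma = 0.00661).

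Aldoc encodes the aldolase best known from brain. Its log2 values were 7.46, 7.14, 7.09 and 7.09 with hBD-2, against 9.49, 9.44, 9.32 and 9.20 with PBS. The nearest arrays of the groups stood 1.74 log2 units apart, and hBD-2 replicate 1 was the highest of its group. Aldoc was at 22.3% of its PBS level with hBD-2 (log2 fold change -2.17, 95% interval -2.41 to -1.92, adjusted p by limma = 6.04e-06). By size of fall it ranked 2 among all 19505 genes. Its promoter at the first of the annotated starts is shown because Aldoc changed most.
Aldoc, chr11:78322823-78323122, plus strand: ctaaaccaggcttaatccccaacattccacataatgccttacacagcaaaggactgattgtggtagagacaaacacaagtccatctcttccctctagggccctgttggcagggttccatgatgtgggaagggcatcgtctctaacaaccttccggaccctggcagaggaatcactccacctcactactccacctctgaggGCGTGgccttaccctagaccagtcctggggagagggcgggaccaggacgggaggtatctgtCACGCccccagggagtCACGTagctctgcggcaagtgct
This window held GCGTG at -50, CACGC at 12 and CACGT at 28. Across the annotated starts of all 10 genes, 12 of 17 windows held one or both of the motifs (43.8% of all windows), among them that of Hk3. By gene, 8 of 10 had a match, against 46.7% of all genes. The windows of Gpi1 and Tpi1 held none, nor did start 1 of Hk1 and of Aldoa or start 4 of Pfkm. Some windows of a gene overlap, so a site can be counted more than once.

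Tpi1 encodes triosephosphate isomerase, for which no isoenzyme gene was among the members. Its log2 values were 10.34, 10.25, 9.63 and 9.81 with hBD-2, against 11.01, 11.06, 10.91 and 10.95 with PBS. The hBD-2 arrays fell into a higher pair, replicates 1 and 2, and a lower pair, replicates 3 and 4, all below PBS. Tpi1 was at 10.01 ± 0.34 with hBD-2 and 10.98 ± 0.07 with PBS (SD, n = 4 each), a 1.97-fold fall (log2 fold change -0.98, SE 0.15, limma adjusted p = 0.00470). Without hBD-2 replicates 3 and 4 its log2 fold change was -0.69 (limma adjusted p = 0.0258).

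**Figure D2:**
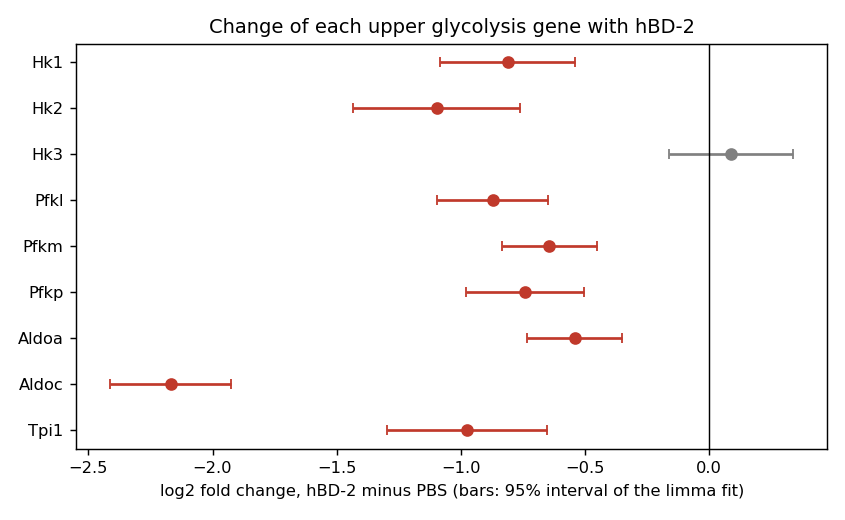
Log2 fold change, hBD-2 minus PBS, of each measured gene, with the 95% interval of the limma fit (n = 4 arrays each). Red points passed an adjusted p of 0.05 and the grey point, Hk3, did not. Aldoc at -2.17 lies outside the intervals of the other genes.

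Isoenzymes of a step were then set against each other within each array, as the log2 value of one minus that of the other, which shows unequal change and not which level is higher. In 3 of 7 pairs the groups did not overlap, and none of the 7 passed after adjustment over the pairs. With 4 arrays against 4 the smallest possible p is 0.0286. The 3 pairs without overlap stood at that p, and with only 3 of 7 pairs there none can pass after adjustment. Their not passing thus says nothing of the size of their differences. The value of Aldoa minus Aldoc was 3.99, 4.29, 4.13 and 4.23 on the hBD-2 arrays, against 2.41, 2.47, 2.56 and 2.70 on the PBS arrays. The groups stood far apart, and the change of Aldoc exceeded that of Aldoa by 1.63 log2 units, or 3.09-fold (exact permutation test, two-sided, p = 0.0286, adjusted p = 0.0667 over 7 pairs).

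For Hk2 minus Hk3 the values were 0.49, 0.65, -0.35 and 0.28 with hBD-2, against 1.84, 1.28, 1.25 and 1.43 with PBS. The difference of the changes was -1.19 log2 units (exact permutation test, two-sided, p = 0.0286, adjusted p = 0.0667). For Hk1 minus Hk3 it was -0.90, at 2.46 ± 0.41 with hBD-2 and 3.36 ± 0.17 with PBS (SD, n = 4 each; exact permutation test, two-sided, p = 0.0286, adjusted p = 0.0667). In both pairs all 4 hBD-2 arrays lay below all 4 PBS arrays. The larger fall of Hk2 than of Hk1 did not stand clear of the spread, with Hk1 minus Hk2 at 2.19 ± 0.21 with hBD-2 and 1.90 ± 0.13 with PBS (SD, n = 4 each; exact permutation test, two-sided, p = 0.114, adjusted p = 0.160).

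Within phosphofructokinase the 3 subunit genes did not differ detectably in their change. Pfkl minus Pfkm was 2.15 ± 0.19 with hBD-2 and 2.38 ± 0.11 with PBS (SD, n = 4 each; difference -0.23, exact permutation test, two-sided, p = 0.0571, adjusted p = 0.100). Pfkl minus Pfkp was -1.69 ± 0.25 with hBD-2 and -1.56 ± 0.05 with PBS (SD, n = 4 each; difference -0.13, exact permutation test, two-sided, p = 0.371). Pfkm minus Pfkp was -3.84 ± 0.17 with hBD-2 and -3.94 ± 0.10 with PBS (SD, n = 4 each; difference 0.10, exact permutation test, two-sided, p = 0.514). In these 3 pairs the groups overlapped, which does not show that the subunits changed alike.

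**Figure D3:**
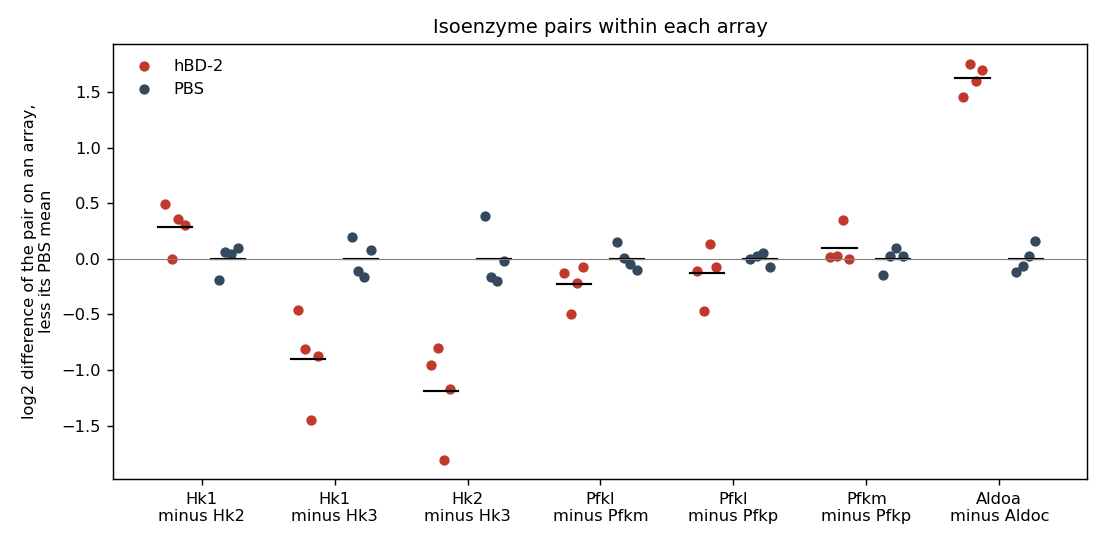
Log2 difference of each isoenzyme pair within an array, less the mean of that pair over the PBS arrays, with 1 point per array (red hBD-2, dark PBS) and bars at the group means. The hBD-2 and PBS points are apart for Hk1 minus Hk3, Hk2 minus Hk3 and Aldoa minus Aldoc, and overlap in the other 4 pairs.

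The depth of the fall varied between the hBD-2 arrays in a way that most of the genes shared. Of the 8 lower genes, 6 had their lowest value on hBD-2 replicate 3, 1 on replicate 2 (Pfkl) and 1 on replicate 4 (Pfkm). The highest hBD-2 value was on replicate 1 in 5 and on replicate 2 in 3. The median deviation of the 8 genes from the hBD-2 mean was 0.15 on replicate 1, 0.10 on replicate 2, -0.19 on replicate 3 and -0.10 on replicate 4. The arrays with the narrowest spread of values were thus the ones with the lower values, and their part in the fall was not tested beyond the values without them given above. In all 9 genes the SD was larger with hBD-2 than with PBS, which was so for 59.8% of all genes. Among the 8 lower genes the SD was 0.10 to 0.34 with hBD-2 and 0.01 to 0.14 with PBS.

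**Figure D4:**
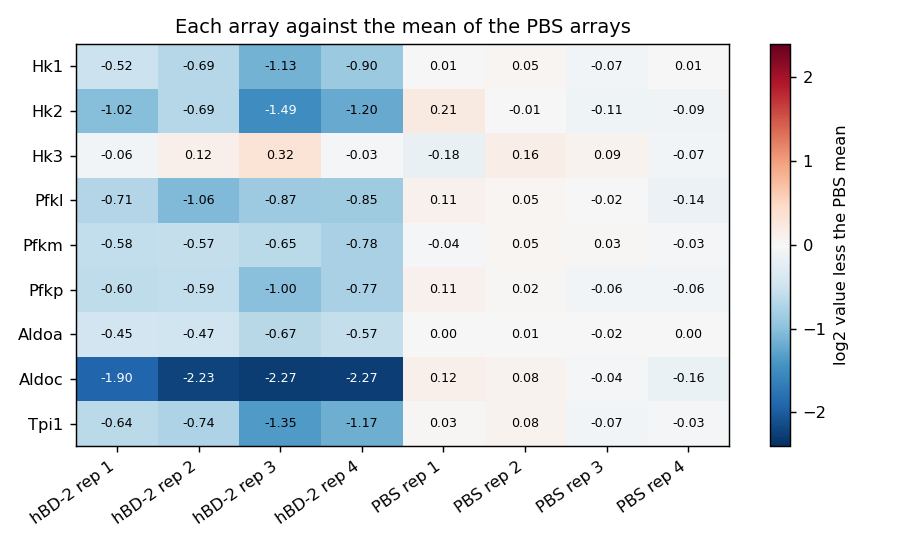
Log2 value of each measured gene on each array less the gene's mean over the PBS arrays, hBD-2 arrays at the left, blue for lower and red for higher. On hBD-2 replicate 3 the values of Hk2 and Tpi1 are -1.49 and -1.35, against -0.69 and -0.74 on hBD-2 replicate 2, while Hk3 is at 0.32 on replicate 3.

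The lists of neighbouring genes hold relatives and regulators of these enzymes and the steps before and after them. Over all genes 3.66% were called lower and 0.800% higher. The lists were chosen with earlier results of these data known, so nothing is read from their counts. The share of all genes at an unadjusted p below 0.05 was not determined, so unadjusted counts are given only as a description. Of 3 other measured enzymes and regulators of the upper steps, 0 passed the limma threshold, also unadjusted (median log2 fold change 0.01). These were Hkdc1, a hexokinase-like gene, Adpgk, an ADP-dependent glucokinase, and Gckr, the liver glucokinase regulator, at log2 fold changes of 0.28, -0.10 and 0.01 (adjusted p by limma = 0.247, 0.626 and 0.988). Of 8 genes that steer or reverse the upper steps, 2 fell and 0 rose (median -0.09). Pfkfb3, which makes the fructose 2,6-bisphosphate that activates phosphofructokinase, fell 1.68-fold, to 7.68 ± 0.23 in hBD-2 cells against 8.42 ± 0.10 in PBS cells (SD, n = 4 each; limma adjusted p = 0.00642). Without hBD-2 replicates 3 and 4 that call was lost (limma adjusted p = 0.0846). G6pc3, a glucose-6-phosphatase and so an opponent of hexokinase, was 1.70-fold lower (limma adjusted p = 0.0152). It no longer passed on leaving out hBD-2 replicate 4, PBS replicate 1 or PBS replicate 2 (limma adjusted p up to 0.0559), nor without hBD-2 replicates 3 and 4 (0.153). Pfkfb4 and Tigar, which also act on fructose 2,6-bisphosphate, did not pass, at log2 fold changes of -0.24 and -0.16 (adjusted p by limma = 0.331 and 0.440).

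Downstream, 5 of 13 measured genes of lower glycolysis and the lactate dehydrogenases fell and 0 rose (median log2 fold change -0.21). Over all genes 3.66% were called lower and 0.800% higher. At an unadjusted limma p below 0.05, 7 were lower and 1 was higher. Without hBD-2 replicates 3 and 4, 1 of the 5 was called (over all genes, 112 in place of 713 were called lower). Pgam1, the phosphoglycerate mutase, fell 1.93-fold, to 8.90 ± 0.22 in hBD-2 cells against 9.84 ± 0.11 in PBS cells (SD, n = 4 each; limma adjusted p = 0.00157). Pgk1, which makes the first ATP of the pathway's payoff, fell 1.64-fold, the muscle-type enolase Eno3 1.50-fold and the pyruvate kinase gene Pkm 1.44-fold (limma adjusted p = 0.00923, 0.00812 and 0.00850). The fifth was Ldha, named after its value was seen, 1.42-fold lower (limma adjusted p = 0.0375). It no longer passed on leaving out any one of 7 arrays, hBD-2 replicate 1 being the exception (limma adjusted p up to 0.0986), and with quantile normalization repeated. Eno2, Gapdh and Ldhb, named likewise, did not pass. Their log2 fold changes were -0.33, -0.21 and 0.22 (limma adjusted p = 0.129, 0.160 and 0.224), and the groups overlapped only for Ldhb. Of all genes, 9.36% were lower without overlap.

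Of 15 transporters of glucose and lactate, 4 fell and 0 rose (median -0.04), against 3.66% lower and 0.800% higher over all genes. At an unadjusted limma p below 0.05, 4 were lower and 1 was higher. Slc2a3 and Slc2a1, the glucose transporters GLUT3 and GLUT1, fell 3.38-fold and 2.02-fold (limma adjusted p = 0.000250 and 0.00204). The lactate carriers Slc16a3 and Slc16a1 fell 2.27-fold and 1.54-fold (limma adjusted p = 0.000632 and 0.0124), the last a call lost without hBD-2 replicates 3 and 4 (limma adjusted p = 0.160). At the branches of glucose 6-phosphate and fructose 6-phosphate, glycogen breakdown included, 6 of 21 genes fell and 0 rose (median -0.27). These included Pgm1, a phosphoglucomutase, 1.94-fold lower, Gbe1 and Gys1 of glycogen synthesis, 1.86-fold and 1.49-fold lower, and Pgd of the pentose phosphate pathway, 1.69-fold lower (limma adjusted p = 0.000864, 0.000975, 0.00935 and 0.00252). Without hBD-2 replicates 3 and 4, 3 of the 6 were called, and Gys1 was not (limma adjusted p = 0.0986). The other two of the 6, Pygb and Gnpnat1, named after their values were seen, no longer passed with quantile normalization, cyclic loess or the level trend removed, nor without hBD-2 replicates 3 and 4 (limma adjusted p = 0.204 and 0.145). On leaving out 1 array at a time, Pygb passed only without hBD-2 replicate 1 or 2 or PBS replicate 3, and Gnpnat1 only without PBS replicate 3 (highest limma adjusted p = 0.106 and 0.107). Of 8 genes listed around the branches from triose phosphates and fructose, not all of them acting on these directly, 0 passed the limma threshold (1 at an unadjusted p below 0.05, median -0.15). Gpd2, a glycerol-3-phosphate dehydrogenase, was at 6.29 ± 0.27 with hBD-2 and 6.88 ± 0.28 with PBS (SD, n = 4 each; limma adjusted p = 0.0649). Gpd2 did pass without hBD-2 replicate 1 (limma adjusted p = 0.0308), without PBS replicate 3 (0.0374), with dim genes left out (0.0499) and with trend and robust eBayes (0.0106). Hagh, Glo1 and Gpd1l had log2 fold changes of -0.35, -0.25 and -0.22.

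Of 16 genes listed as regulators of glycolysis genes, among them transcription factors and oxygen-sensing genes, 3 fell and 0 rose (median -0.20). Over all genes 3.66% were called lower and 0.800% higher. The 3 were the prolyl hydroxylase genes Egln3 and Egln1, 2.98-fold and 1.57-fold lower, and the Myc antagonist Mxi1, 1.50-fold lower (limma adjusted p = 0.000424, 0.00204 and 0.00804). Mxi1 lost its call without hBD-2 replicates 3 and 4 (limma adjusted p = 0.0992). Mlx, a partner of glucose-sensing factors, had a log2 fold change of -0.35 without passing (limma adjusted p = 0.0711). It did pass with dim genes left out (0.0483) and with trend and robust eBayes (0.0140). At an unadjusted limma p below 0.05, 6 of the 16 were lower and 2 were higher. The 2 higher were Hif1a and Txnip, named after their values were seen. Their log2 fold changes were 0.27 and 0.28 (limma adjusted p = 0.110 and 0.126), and their groups did not overlap. Groups did not overlap in 14.9% of all genes, counting both directions. Vhl and Hif3a, named likewise, were both at -0.41 (limma adjusted p = 0.0746 and 0.115), and the groups overlapped only for Hif3a. Myc, named likewise, was at -0.22 (limma adjusted p = 0.251).

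**Figure D5:**
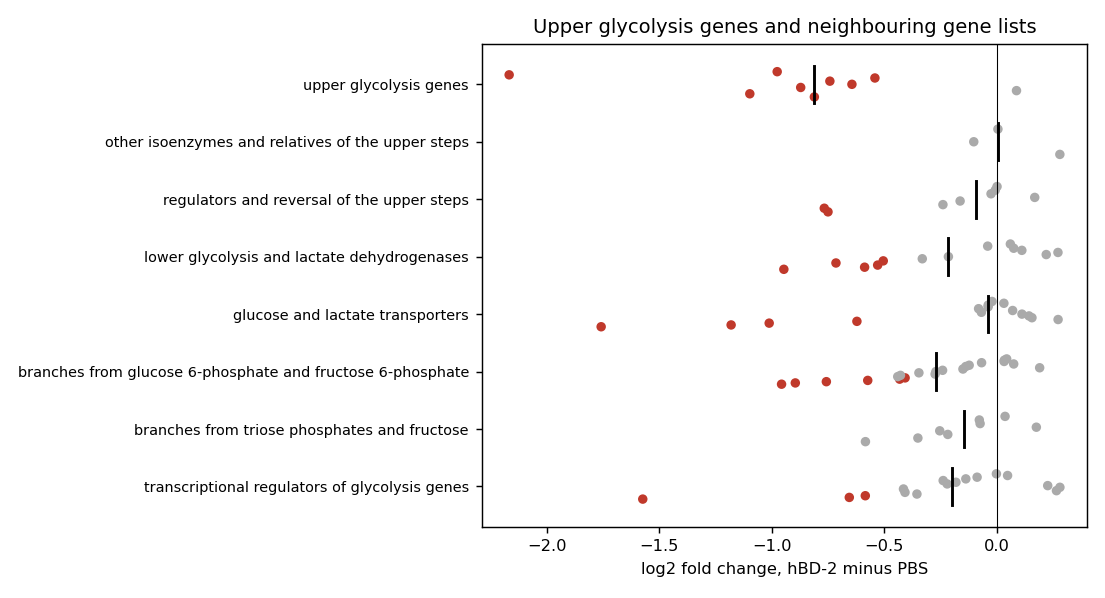
Log2 fold change, hBD-2 minus PBS, of every measured gene in the 9 upper glycolysis genes and 7 neighbouring lists, red where the adjusted p was below 0.05 and grey otherwise, with a black bar at each median. The median is -0.81 for the upper glycolysis genes and between -0.27 and 0.01 for the 7 lists. The 9 genes were chosen with results of this comparison known, and the lists also hold dim genes such as Ldhc and Slc16a7. The gap between medians is thus not read as particular to the 9 genes. Some genes of the lists fell as far, such as Slc2a3 at -1.76, though most genes of each list did not pass.

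Genes with the most similar profile were sought for the gene that changed most at each step with isoenzymes, by the root mean square difference over the 8 arrays after each gene was centred on its own mean. Such likeness mostly repeats a similar difference between the groups. Closest to Aldoc were the fatty acid desaturase gene Fads2 (0.21 log2 units), the glucose transporter Slc2a3 (0.25) and the metallothionein Mt2 (0.27), with a median of 1.11 over all other genes. Closest to Hk2 were the transcription factor Nfil3, the membrane protease Adam8 and Pdk3, a kinase that restrains pyruvate dehydrogenase (0.13 each, median 0.62). Closest to Pfkl were Pgd (0.08) and, at 0.11 each, the receptor Cd160 and the sialyltransferase St6gal1 (median 0.48). Pgd was at 7.66 ± 0.11 with hBD-2 and 8.42 ± 0.15 with PBS (SD, n = 4 each), and Pfkl at 8.19 ± 0.14 with hBD-2 and 9.07 ± 0.10 with PBS.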

How the data were processed

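Expression was measured on 8 one-colour Affymetrix arrays, 4 with hBD-2 and 4 with PBS, grouped by their titles. The deposited table holds log2 values for 22203 probe sets, made by the authors with oligo and RMA (background correction, normalization and summary of probes) per the submitters' processing notes. For versions, settings, annotation build, slides and scan dates, the sources used here give nothing. RMA draws dim signals towards a floor, which understates their fold changes, and no detection calls were used. The number of arrays limits the precision.

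Of the probe sets, 19572 have 1 gene symbol in the platform annotation, none has several and 2631 are not listed. Where a gene had several (55 genes), the probe set of highest mean represented it, leaving 19505 genes. No dim gene was left out. Groups were compared with limma 3.58.1 in R 4.3.3 (lmFit, eBayes, no block), two-sided, at 0.05 after adjustment by Benjamini and Hochberg over the whole table. Each log2 fold change is the hBD-2 mean minus the PBS mean. Isoenzyme pairs were compared by exact permutation. The scripts were tested on simulated data.

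The members and gene lists were chosen with earlier results of these data known. Of each neighbouring list, up to 4 genes with the smallest p are named. Alternatives were the replicate block, quantile normalization, cyclic loess, removal of each array's level trend, a filter on dim genes, eBayes with trend and robust estimation, other uses of probe sets, and omission of single arrays.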

Additional observations from a re-analysis of the deposited data

Results flagged for a closer look

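In 92 groups of 4 arrays (named genes and isoenzyme pairs, hBD-2 and PBS arrays apart) the highest or lowest array was checked for its distance from the nearest of the others as a share of the group's range, by Dixon's ratio at the 95% level. Chance passes about 1 in 20 such groups, and 6 passed here. In Aldoc, hBD-2 replicate 1 stood above the other hBD-2 arrays, 7.46 against 7.09 for the lowest (share 0.876), and still below every PBS array. In Pfkm minus Pfkp, hBD-2 replicate 3 stood apart at -3.59, with the lowest array at -3.95 (0.907). Among neighbouring genes, hBD-2 replicate 3 stood low for Adpgk, 6.81 against a highest value of 7.16 (0.908). Tigar stood high on hBD-2 replicate 1, at 5.57 against a lowest value of 5.30 (0.941). On the PBS arrays, Hkdc1 was high on replicate 2, 5.77 against 5.42 for the lowest (0.946), and Pgam1 was low on replicate 3, 9.68 against 9.91 for the highest (0.880).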

How the results depend on the processing

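The count of 8 lower upper glycolysis genes was the same under every alternative listed in the processing, including each omission of 1 array (highest limma adjusted p of the 8 genes, 0.0277), and Hk3 stayed above 0 and not past the threshold (log2 fold change 0.01 to 0.14). Without hBD-2 replicates 3 and 4, an alternative chosen after seeing the data, 7 were lower and Aldoa was at -0.46 (limma adjusted p = 0.0840). No isoenzyme pair changed sign. Over all genes, 869 changed (156 higher, 713 lower), against 2033 (479 and 1554) with trend and robust eBayes and 128 (16 and 112) without hBD-2 replicates 3 and 4. With dim genes left out 260 were higher. Omitting single arrays gave 312 (without PBS replicate 1) to 1396 (without hBD-2 replicate 1) changed genes, 33 to 322 higher and 279 to 1074 lower. The share of lower genes among those changed moved most with normalization, with 227 higher and 521 lower after quantile normalization, 220 and 576 after cyclic loess and 234 and 536 with the level trend removed. The cause was not tested. Gckr, near 0, turned to -0.0595 with quantile normalization, -0.0586 after cyclic loess, -0.0584 after removal of the level trend and -0.0617 without hBD-2 replicates 3 and 4, and ranged from -0.11 to 0.0997 over omissions of 1 array. With the replicate block 857 genes changed and the same 8 members were lower (limma adjusted p 0.000117 to 0.0177). Under the block Gpd2 passed (0.0130) and Pygb and Gnpnat1 did not. Same-numbered arrays deviated together with correlations of 0.18, 0.06, 0.16 and 0.0048, against -0.15 to 0.09 for other pairings. hBD-2 replicates 1, 2 and 3 and PBS replicates 1 and 3 correlated best with their own number, and the other arrays did not. Whether the numbers pair the samples was thus not settled. The main fit and the permutation tests took the samples as unpaired.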
